A study of Mus musculus with 12 samples.

Results

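The nuclear-encoded subunits of the mitochondrial respiratory chain were described across freshly isolated crypts and cultured monolayers of mouse small intestine (SI) and large intestine (LI). They were taken as all genes whose symbol follows the naming pattern of complex I (Ndufa, Ndufb, Ndufc, Ndufs and Ndufv), complex II (Sdh), complex III (Uqcr) or complex IV (Cox4 to Cox8), which gave 67 of the 55487 genes in the count table. The pattern reads names only and uses no measured value. Sorted by complex, 35 genes belonged to complex I, 4 to complex II, 8 to complex III and 19 to complex IV. Ndufa4 carries a complex I name but is held to be a subunit of complex IV, and it was counted apart from both. The annotation gives 66 of the 67 as protein coding, and Cox6c2, the exception, as a processed pseudogene. The 3 names with -ps (Ndufb1-ps, Uqcrh-ps1 and Uqcrh-ps2) were left out.

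The respiratory chain of the inner mitochondrial membrane passes electrons from NADH at complex I, or from succinate at complex II, through ubiquinone to complex III, cytochrome c and complex IV, where oxygen is reduced. Complexes I, III and IV pump protons as they do so, and ATP synthase uses the resulting gradient to make ATP. Complex II is also an enzyme of the citric acid cycle and is built from nuclear genes alone, whereas the other complexes combine nuclear-encoded subunits with a few encoded in mitochondrial DNA. In the intestinal epithelium, differentiated absorptive cells are known for many mitochondria, and in LI epithelium oxidation of the short chain fatty acid butyrate is a main source of energy.

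All 12 libraries were RNA-seq of C57BL/6 mice, with 3 libraries in each of 4 groups and none of them under a test treatment. SI crypts and LI crypts (in vivo tissue in the labels) came from mice counted as replicates according to the study, which calls the material freshly harvested intestine, while the sample titles name crypts. The sources used here do not say whether SI and LI libraries of equal number came from the same animal. SI monolayers and LI monolayers were crypt cells grown for 24 h on Matrigel in control medium, which the study's methods describe as basal medium with Wnt3a, EGF, Noggin and R-spondin-1 after a short seeding step with inhibitors of GSK-3, BMP receptors and ROCK, and each library came from pooled wells. SI material for culture was jejunum released in cold EDTA and LI material was released in a warm mixture of collagenase, dispase, DNase and EDTA, so region and isolation method cannot be told apart. Sex and age are not in the labels, and the methods state that male and female mice of a range of ages in weeks were used, with both regions taken from the same mice for culture. The labels do not say whether wells pooled for one monolayer library came from other mice than those of the next, so for monolayers the spread may be partly technical.

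Libraries held 59016196 to 76216530 counts assigned to genes (median 69256790). Levels are CPM, the share of a library's counts on a common scale after TMM scaling, which compare libraries for a given gene, and levels of different genes are compared only per kilobase of exon (RPKM). Of the 67 genes, 63 passed the filter on low counts and were tested among 19581 genes. Marker genes, 12 per cell type, were summed in CPM. The enterocyte marker sum was 16334 to 24813 in SI crypts and 6437 to 6580 in SI monolayers, and 3749 to 4523 in LI crypts and 1612 to 1710 in LI monolayers. Of its 12 genes 10 fell in SI culture but 4 in LI culture, where the median log2 fold change was 0.23. The goblet marker sum was 6398 to 10943 in SI crypts, 5257 to 5400 in SI monolayers, 18035 to 22557 in LI crypts and 2142 to 2334 in LI monolayers. The immune marker sum was 1020 to 1939 in SI crypts, 160 to 171 in SI monolayers, 1248 to 1669 in LI crypts and 12.8 to 16.7 in LI monolayers, and of its 12 genes 10 fell and 1 rose in SI culture and 11 fell and 1 rose in LI culture. The proliferation marker sum was higher in monolayers, 1480 to 1505 against 1042 to 1121 in SI and 1310 to 1402 against 824 to 926 in LI. The stem cell marker sum was 1756 to 2230 in SI crypts, 566 to 586 in SI monolayers, 682 to 716 in LI crypts and 437 to 466 in LI monolayers. Of its 12 genes 7 fell and 2 rose in SI culture (median log2 fold change -0.63), and 10 fell and 0 rose in LI culture (median -1.48). The Paneth marker sum was 7321, 12887 and 30298 in the SI crypt libraries, which stood far apart, against 8422 to 9116 in SI monolayers, 758 to 1730 in LI crypts and 586 to 608 in LI monolayers. The enteroendocrine marker sum was 450 to 758 in SI crypts, 840 to 886 in SI monolayers, 282 to 329 in LI crypts and 960 to 1099 in LI monolayers. Of its 12 genes 4 rose and 2 fell in SI culture, with a median log2 fold change of -0.19. In LI culture 6 rose and 3 fell, with a median of 0.96. Of all genes tested, 30.6% fell and 29.0% rose in SI culture, and 36.6% fell and 32.1% rose in LI culture. The part of these shifts in the results below was not tested, and in bulk RNA fewer cells of a type and less RNA per cell cannot be told apart.

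Summed over each complex, transcript levels were lowest in LI monolayers, next in SI monolayers and highest in crypts. The complex I sum was 6314, 6013 and 6112 CPM in the 3 libraries of SI crypts, 3342, 3254 and 3311 in SI monolayers, 5502, 6180 and 6407 in LI crypts and 2362, 2290 and 2359 in LI monolayers. The groups of crypts overlapped, and every monolayer library lay below every crypt library. The complex II sum was 2483, 2407 and 2310 CPM in SI crypts, 1125, 1116 and 1119 in SI monolayers, 1635, 1782 and 1825 in LI crypts and 668, 703 and 723 in LI monolayers. Complex II was the only one of the 4 in which the SI crypt and LI crypt libraries did not overlap. For complex III the sum in crypts was 3530 ± 100.3 CPM (SD, n = 3) in SI and 3255 ± 312 in LI, against 1859 ± 28.4 and 1174 ± 21.7 in the respective monolayers. For complex IV it was 5779 ± 263 in SI crypts, 2866 ± 37.4 in SI monolayers, 6392 ± 533 in LI crypts and 2164 ± 48.2 in LI monolayers. Expressed as a ratio of group means, crypts held 1.86 (complex I), 2.14 (II), 1.90 (III) and 2.02 (IV) times the level of monolayers in SI, and 2.58, 2.50, 2.77 and 2.95 times in LI.

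**Figure D1:**
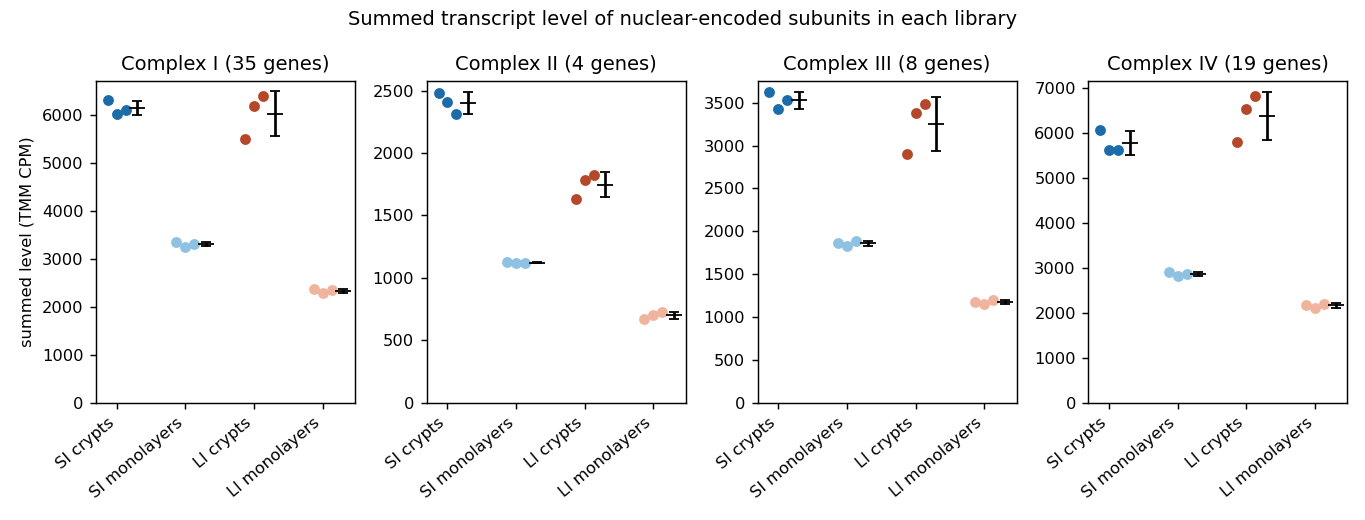
Summed transcript level of the genes of complexes I, II, III and IV in TMM-scaled CPM, on axes that start at 0. Coloured points are single libraries and black bars give the mean ± SD of 3 libraries, and in each complex the LI monolayers (1174 ± 21.7 for complex III, for example) lie below the SI monolayers and all monolayers below all crypts.

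The same order held for most single genes. In 57 of the 63 tested genes every LI monolayer library lay below every SI monolayer library and these below every crypt library, an order found in 8.6% of all genes tested. It held for 33 of 35 genes of complex I, 4 of 4 of complex II, 8 of 8 of complex III and 12 of 15 of complex IV. The 6 exceptions were Ndufa1, Ndufa11, Ndufa4, Cox5a, Cox6a2 and Cox6c2. The group mean was lowest in LI monolayers in 62 of 63 genes, and in SI monolayers for Ndufa1, an accessory subunit of the complex I membrane arm. The highest mean was in SI crypts for 32 genes and in LI crypts for 31. No share over all genes was taken for these counts of lowest and highest means.

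**Figure D2:**
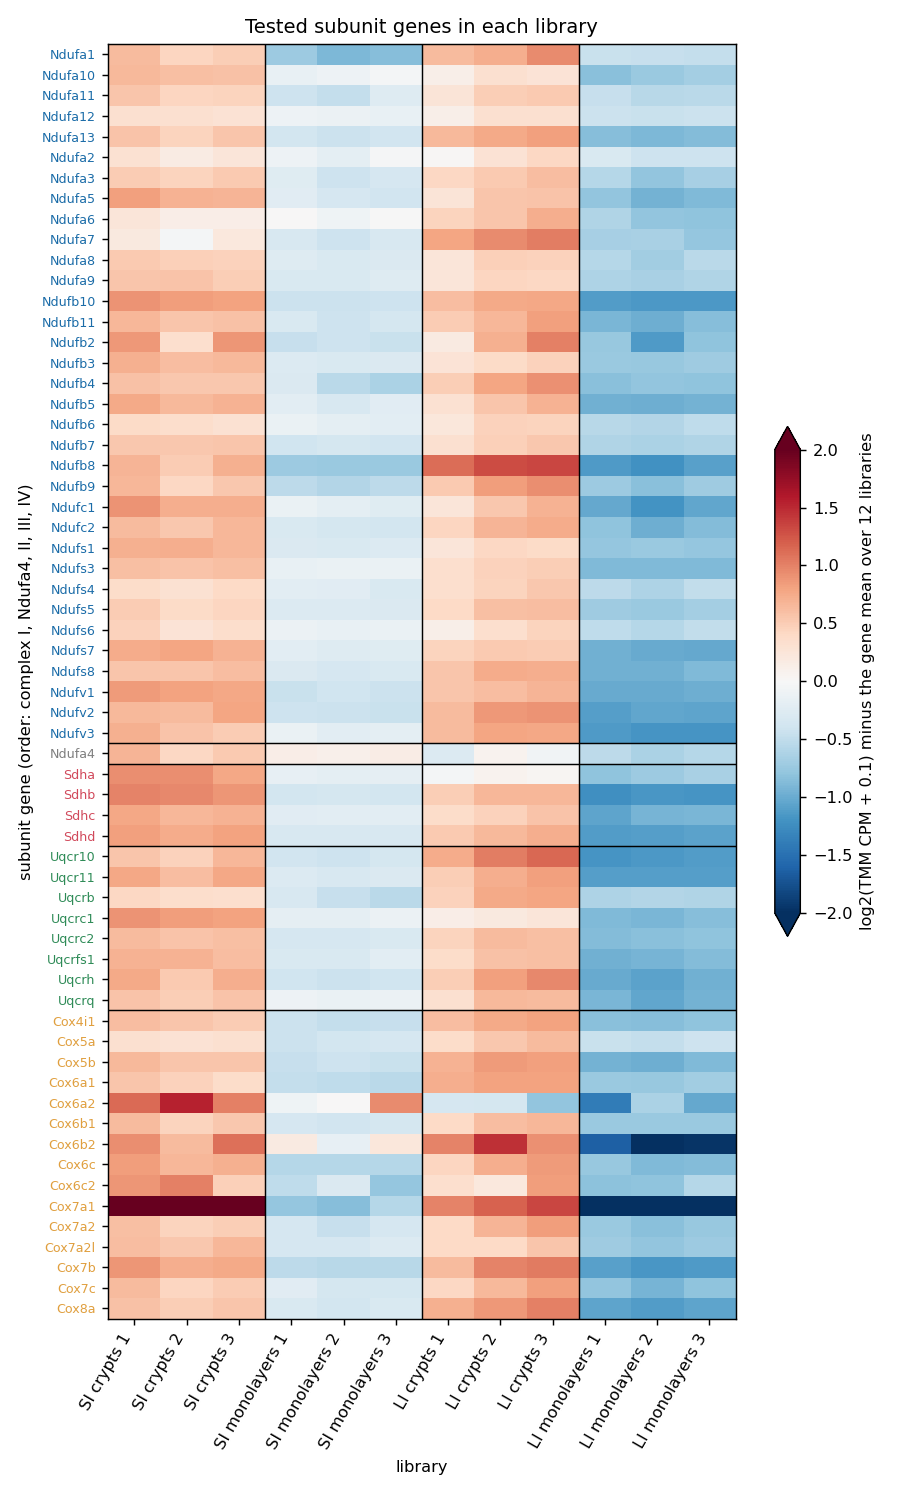
Level of 62 of the 63 tested genes (rows, ordered by complex) in each of the 12 libraries (columns), as log2(CPM + 0.1) minus the mean of that gene over the libraries, with the colour scale ending at 2 in either direction. Monolayer columns are blue and crypt columns red for nearly all rows, and Cox7a1 exceeds the scale.

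Per kilobase of exon, the genes of one complex differed widely in level. In SI crypts Cox6a1, the complex IV subunit 6A of most tissues, stood highest at 1464 ± 96.3 RPKM (SD, n = 3), followed by Cox8a at 904 ± 27.4, Cox6b1 at 708 ± 44.4 and Cox4i1 at 681 ± 27.6. Medians in SI crypts were 113 RPKM over complex I, 234 over complex II, 269 over complex III and 298 over complex IV, counting tested genes. These levels depend on the exon length taken for each gene, which ran from 231 to 8086 bases. Ndufb2, an accessory subunit of complex I, was far below the rest of its complex at 1.67 ± 0.341 RPKM. Its locus overlaps 3 other annotated genes, one of them (Gm42420) on the same strand, and the part of ambiguous reads in its low level was not tested.

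The first comparison was of culture in SI, monolayers against crypts. All 63 genes had a negative log2 fold change, 62 fell (edgeR quasi-likelihood test, adjusted p below 0.05 over 19581 genes) and 0 rose, where 30.6% of all genes tested fell and 29.0% rose. The median log2 fold change was -0.94, against -0.05 over all genes tested. By complex the medians were -0.92 (I), -1.08 (II), -0.94 (III) and -0.97 (IV). In all 63 genes every monolayer library was below every crypt library, as in 34.3% of all genes. A fall of at least 2-fold was found in 22 genes (16.4% of all genes), 10 of complex I, 3 of II, 3 of III and 6 of IV.

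The second comparison was the same in LI. Again 62 genes fell and 0 rose, where 36.6% of all genes fell and 32.1% rose, and 51 fell at least 2-fold (23.5% of all genes). The median log2 fold change was -1.45, against -0.05 over all genes tested, with medians of -1.34 (I), -1.58 (II), -1.48 (III) and -1.51 (IV). Every monolayer library was below every crypt library in 62 of 63 genes, as in 38.5% of all genes. The 11 genes that fell by less than 2-fold in LI were Ndufa2, Ndufa4, Ndufa9, Ndufa10, Ndufa11, Ndufa12, Ndufb6, Ndufs4, Ndufs6, Sdha and Cox5a. The single gene that did not pass the test, in SI as in LI, was Cox6a2. With the trends of GC content and exon length removed from the counts, the numbers of genes that fell were 60 in SI and 59 in LI, and those that fell at least 2-fold were 8 and 30. That correction also moved the median of all genes by 0.18 in SI and 0.22 in LI, with medians of the subunit genes at -0.77 and -0.94.

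Among the 7 nuclear-encoded core subunits of complex I, which carry the flavin, the iron-sulfur clusters and the ubiquinone site, all fell in both regions. Ndufv1, which binds the flavin that accepts electrons from NADH, was at 443, 431 and 421.5 CPM in SI crypts, 181, 186 and 184 in SI monolayers, 361.5, 379 and 395 in LI crypts and 122.3, 122 and 125 in LI monolayers. The 4 groups did not overlap for Ndufv1, with SI above LI both in crypts and in monolayers. Its log2 fold change in culture was -1.23 ± 0.05 (SE, n = 3 per group) in SI and -1.62 ± 0.05 in LI. Ndufv2, its iron-sulfur partner, fell by 1.12 ± 0.06 in SI and 1.88 ± 0.07 in LI on the log2 scale, the largest fall of the core subunits in LI. Ndufs1, the largest iron-sulfur subunit, fell by 0.996 ± 0.05 and 1.10 ± 0.05, and it was the single core subunit for which the difference between regions did not pass the test (edgeR interaction, adjusted p = 0.23). Ndufs3, Ndufs7 and Ndufs8, further subunits of the core, fell by 0.72, 0.98 and 0.89 in SI and by 1.31, 1.49 and 1.62 in LI.

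The 28 accessory subunits of complex I, which surround the core and serve its assembly and stability, fell by a median of 0.88 in SI and 1.28 in LI. Ndufb8, of the distal membrane arm, fell the most. It was at 217, 194 and 223 CPM in SI crypts, 82.1, 81.5 and 81.2 in SI monolayers, 294, 337 and 343 in LI crypts and 61.8, 59.1 and 64.1 in LI monolayers. LI crypts were thus the highest group for Ndufb8 and LI monolayers the lowest, a 5.27-fold fall in LI against 2.59-fold in SI (edgeR, adjusted p = 4.3e-14 and 5.1e-11). Ndufa6 fell the least in SI, at 188, 174 and 174 CPM in crypts and 160, 150 and 158 in monolayers. Its log2 fold change of -0.20 ± 0.07 passed the test (edgeR, adjusted p = 0.026) but lost the call when any of 6 single libraries was left out, SI monolayer library 2 giving the smallest value, -0.13. Without that library the median of all genes moved as well, from -0.049 to -0.015. In LI Ndufa6 fell by 1.31 ± 0.07. The other accessory subunits that fell at least 2-fold in LI were Ndufa1, Ndufa13, Ndufa3, Ndufa5, Ndufa7, Ndufa8, Ndufb10, Ndufb11, Ndufb2, Ndufb3, Ndufb4, Ndufb5, Ndufb7, Ndufb9, Ndufc1, Ndufc2, Ndufs5 and Ndufv3, from -1.004 for Ndufa8 to -1.90 for Ndufv3 on the log2 scale.

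**Figure D3:**
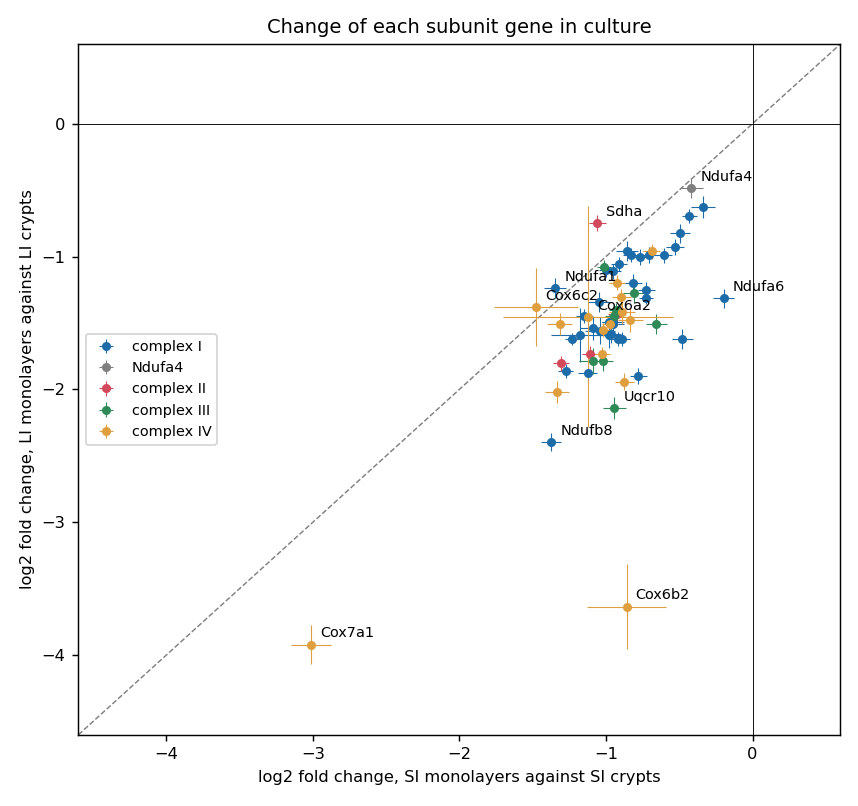
Log2 fold change of each tested gene in culture, SI monolayers against SI crypts on the x axis and LI monolayers against LI crypts on the y axis, with standard errors from edgeR as bars and colours by complex. All points lie below 0 on both axes and 60 of 63 lie below the dashed line of equal change, with Cox7a1 and Cox6b2 farthest from the rest.

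All 4 genes of complex II fell in both regions. Sdha (ENSMUSG00000021577.14, GRCm38 chr13:74322254-74350280, minus strand) is the flavoprotein subunit that oxidises succinate. Sdha was at 1001, 999 and 892 CPM in SI crypts, 468, 458 and 462 in SI monolayers, 511, 550.5 and 537 in LI crypts and 300, 318 and 335 in LI monolayers. SI crypts stood apart from the other groups, and SI monolayers were close to, but below, LI crypts. Its log2 fold change was -1.06 ± 0.06 in SI and -0.75 ± 0.06 in LI, so that Sdha fell more in SI, opposite to most of the chain. Sdhb, the iron-sulfur subunit, fell by 1.31 ± 0.05 and 1.80 ± 0.06. The membrane anchors Sdhc and Sdhd fell by 0.93 and 1.11 in SI and by 1.43 and 1.73 in LI.

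In complex III, all 8 genes fell in both regions and all 8 at least 2-fold in LI. Uqcrc1, a core protein of the matrix side, was at 1020, 979 and 957 CPM in SI crypts, 483, 480 and 502 in SI monolayers, 597, 627 and 648 in LI crypts and 295, 290 and 302 in LI monolayers. Its SI libraries were above its LI libraries in crypts and in monolayers alike, and its fall was 1.01 ± 0.05 in SI and 1.08 ± 0.05 in LI. The partner core protein Uqcrc2 fell by 0.93 and 1.40, and the Rieske iron-sulfur protein Uqcrfs1 by 0.94 and 1.45. Uqcr10, a small accessory subunit, had the largest fall of the complex in LI. Uqcr10 was at 245, 230 and 263 CPM in SI crypts, 128, 125 and 131 in SI monolayers, 280, 340 and 371 in LI crypts and 73.7, 74.9 and 76.4 in LI monolayers, a fall of 0.94 ± 0.08 in SI and 2.14 ± 0.08 in LI. The other small subunits Uqcr11, Uqcrb, Uqcrh and Uqcrq fell by 1.02, 0.81, 1.09 and 0.66 in SI and by 1.79, 1.28, 1.78 and 1.51 in LI.

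In complex IV, 14 of the 15 tested genes fell in each region, the annotated pseudogene Cox6c2 among them. Cox4i1, the largest nuclear-encoded subunit in its form of most tissues, was at 1100, 1054 and 1014 CPM in SI crypts, 532, 512 and 517 in SI monolayers, 1090, 1207 and 1242 in LI crypts and 400.3, 396 and 410.0 in LI monolayers. Crypts of the 2 regions overlapped for Cox4i1 whereas monolayers did not, with LI lower. The falls were 1.02 ± 0.06 and 1.55 ± 0.06. Cox5b, which binds zinc, fell by 1.03 and 1.73, and Cox5a, its neighbour on the matrix side, by 0.69 and 0.96. Cox7b fell by 1.34 in SI and 2.02 in LI, and Cox8a, the smallest subunit in its form of most tissues, by 0.87 and 1.94. Cox6c and Cox7c, small subunits of the membrane part, fell by 1.31 and 0.83 in SI and by 1.51 and 1.48 in LI, and Cox7a2l by 0.92 and 1.20. Ndufa4 was at 247, 205 and 221 CPM in SI crypts, 168, 165 and 171 in SI monolayers, 128, 162 and 147 in LI crypts and 108, 99.9 and 104 in LI monolayers. It fell by 0.42 ± 0.08 in SI and 0.48 ± 0.08 in LI, the smallest fall of the 63 genes in LI. With the GC and length trends removed its LI value was 0.04, which did not pass the test, where the median of all genes was 0.167.

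Several subunits of complex IV have a second gene that is known mainly from heart, skeletal muscle, testis or lung. Cox7a1 (ENSMUSG00000074218.3, GRCm38 chr7:30184144-30186078, plus strand) is the heart and skeletal muscle form of subunit 7A. Cox7a1 was at 141, 120 and 113 CPM in SI crypts, 15.02, 14.2 and 17.2 in SI monolayers, 51.3, 58.4 and 65.3 in LI crypts and 3.19, 4.61 and 3.80 in LI monolayers. The 4 groups did not overlap, and the ratio of the highest to the lowest group mean was 32.3, the widest of the 63 tested genes. It fell 8.06-fold in SI (log2 -3.01 ± 0.13, edgeR adjusted p = 1.5e-09) and 15.1-fold in LI (log2 -3.92 ± 0.15, edgeR adjusted p = 1.3e-10). Cox7a2, the form of most tissues, fell by 0.89 ± 0.09 and 1.42 ± 0.09. Per exon length, Cox7a1 made up 43.9% ± 1.84 (SD, n = 3) of Cox7a1 and Cox7a2 together in SI crypts, 15.2% ± 0.934 in SI monolayers, 25.2% ± 0.701 in LI crypts and 5.63% ± 1.18 in LI monolayers. The summed level of smooth muscle and pericyte markers was 2.699 to 3.06 CPM in SI crypts, 2.48 to 2.77 in SI monolayers, 5.64 to 53.3 in LI crypts and 6.80 to 7.19 in LI monolayers, with 53.3 in LI crypt library 1. Of the 11 muscle and pericyte genes tested, 0 fell and 1 rose in SI culture and 6 fell and 1 rose in LI culture. In the muscle list, Lmod1 was at 0 in every SI library, and the list holds smooth muscle genes rather than skeletal ones. The part of muscle cells in the level of Cox7a1 was not tested.

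Cox6b2, known from testis, was at 2.38, 1.91 and 2.69 CPM in SI crypts, 1.37, 1.06 and 1.42 in SI monolayers, 2.50, 3.50 and 2.36 in LI crypts and 0.319, 0.103 and 0.235 in LI monolayers. Only LI monolayers lay far below the other groups, with a log2 fold change of -3.64 ± 0.32 in LI against -0.86 ± 0.27 in SI, and the SI call was lost without SI monolayer library 2 (log2 -0.70, edgeR adjusted p = 0.069). Its partner Cox6b1 fell by 0.90 in SI and 1.31 in LI. Cox6b2 per exon length was 0.296% of the pair in SI crypts, 0.303% in SI monolayers, 0.349% in LI crypts and 0.0678% in LI monolayers. Cox6a2, the heart and skeletal muscle form of subunit 6A, was at 0.472, 0.663 and 0.425 CPM in SI crypts, 0.146, 0.163 and 0.404 in SI monolayers, 0.108, 0.106 and 0.0522 in LI crypts and 0, 0.0683 and 0.0294 in LI monolayers. Cox6a2 passed the filter on low counts only through its SI libraries, so its differences between regions are a description and no independent result. The LI values are near the limit of 3 counts per library (0.0394 to 0.0508 CPM, counting error only and taking counts as independent). The locus of Cox6a2 overlaps the integrin gene Itgad on the other strand, and whether counting used strand is not stated in the sources used here, so reads of both cannot be told apart. Cox6c2, at 1.14 to 1.70 CPM in SI crypts and 0.418 to 0.625 in SI monolayers, fell by 1.48 ± 0.29 in SI and 1.38 ± 0.29 in LI, but its sequence is near identical to that of Cox6c, which is far more abundant, and its values are uncertain.

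The 4 genes that did not pass the filter were all minor forms of complex IV. Cox4i2, the lung form of subunit 4, had 0 to 8 counts in any library. Cox8b, the heart and skeletal muscle form of subunit 8, had 4, 14 and 0 counts in LI crypts, 2, 0 and 0 in LI monolayers and 0 in all 6 SI libraries, and Cox7b2 and Cox8c, both known from testis, had 0 counts in all 12. A count of 0 allows a level of up to 0.0394 to 0.0508 CPM if counts are independent of each other. Most low counts were even, so the limit may be higher, which was not tested. Of the 67 genes, 4 (Cox6c2, Ndufb11, Ndufs3 and Uqcrb) have a near-identical copy elsewhere, and without them 58 of 59 genes fell in each region. The loci of 27 genes overlap another annotated gene, as Sdha does Gm16125 and Ndufb8 does Gm20538 on its own strand, so reads there may have been split or left out.

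**Figure D4:**
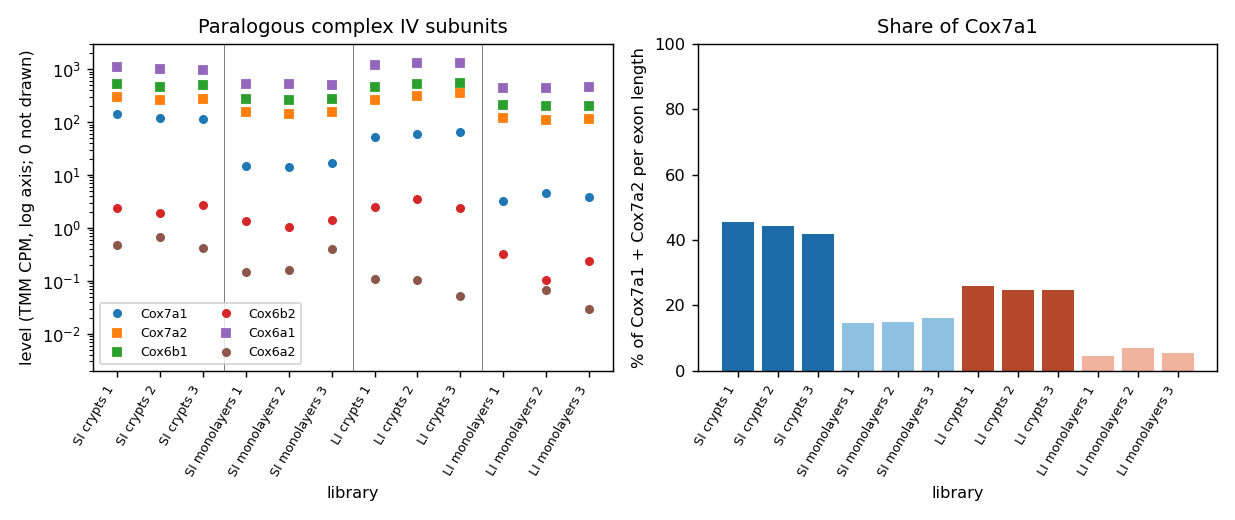
Left, level of 3 pairs of alternative complex IV subunits in each library on a log axis in TMM-scaled CPM, with circles for the minor forms Cox7a1, Cox6b2 and Cox6a2 and squares for Cox7a2, Cox6b1 and Cox6a1. Right, bars from 0 give Cox7a1 per exon length as a percentage of Cox7a1 and Cox7a2 in each library, with means of 43.9% in SI crypts, 15.2% in SI monolayers, 25.2% in LI crypts and 5.63% in LI monolayers.

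The third comparison was of region in fresh crypts, SI against LI, and here the subunit genes did not move together. Of the 63 genes, 20 were higher in SI crypts and 13 lower, where 29.2% of all genes were higher and 24.7% lower, and the median log2 fold change was 0.03 against 0.06 over all genes. Other scalings moved this split, to 15 higher and 21 lower with upper quartile scaling and to 17 and 19 with mitochondrially encoded genes removed, so the direction of genes near 0 is not fixed. The 2 genes at least 2-fold higher in SI crypts were Cox7a1 (log2 1.10 ± 0.12) and Cox6a2 (2.53 ± 0.64, chosen by the filter as given above), where 11.6% of all genes were. Without LI crypt library 1, which had the lowest sums of its group, 15 were higher and 22 lower, and without LI crypt library 3, 23 and 10. Of the 33 calls, 9 were lost when some single library was left out, namely those of Ndufa1, Ndufa9, Ndufb9, Ndufb10, Ndufc1, Ndufs3, Sdhd, Cox4i1 and Cox7a2l, and in Ndufb9, Cox4i1 and Cox7a2l the libraries of the 2 regions overlapped.

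All 4 genes of complex II were higher in SI crypts, led by Sdha at 0.86 ± 0.06, with Sdhb at 0.33, Sdhc at 0.25 and Sdhd, one of the calls lost without a single library, at 0.16. Of the 7 core subunits of complex I, 5 were higher, among them Ndufs1 at 0.36, Ndufs7 at 0.25, Ndufv1 at 0.19 and Ndufs3 at 0.16, whereas Ndufs8 and Ndufv2 were at -0.11 each and did not pass the test. The 28 accessory subunits split into 6 higher and 6 lower, with Ndufa7 at -0.80 ± 0.07, Ndufb8 at -0.62 ± 0.06 and Ndufa6 at -0.41 ± 0.07 the lowest. In complex III, Uqcrc1 was higher in SI crypts at 0.66 ± 0.05, while Uqcr10 at -0.43 ± 0.08 and Uqcrb, a ubiquinone-binding subunit, at -0.30 ± 0.08 were lower. In complex IV, 3 genes were higher (Cox7a1, Cox6a2 and Cox7a2l, the last a supercomplex factor) and 5 lower, namely Cox4i1 (-0.16), Cox5a (-0.20), Cox5b (-0.21), Cox6a1 (-0.31) and Cox8a (-0.32). The calls of Ndufs3, Cox7a2l and Cox4i1 were also among those lost without some single library. For Cox7a2l and Cox4i1 the libraries of the regions overlapped.

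The fourth comparison was of region in monolayers, SI against LI, and here nearly all genes moved one way. SI monolayers were higher in 56 of 63 genes and lower in 1, where 27.0% of all genes were higher and 24.9% lower, with a median log2 fold change of 0.53 against 0.02 over all genes. The gene lower in SI was Ndufa1, at 47.2, 42.2 and 43.3 CPM in SI monolayers against 57.6, 56.6 and 56.2 in LI monolayers (log2 -0.36 ± 0.07, edgeR adjusted p = 0.00068). Those that did not pass the test were Ndufa11, Ndufb2, Ndufb9, Uqcrb, Cox5a and Cox6c2. At least 2-fold differences were found in 3 genes (12.4% of all genes), Cox7a1 at 2.01 ± 0.14, Cox6b2 at 2.52 ± 0.33 and Cox6a2, which passed the filter only through SI libraries, at 2.86 ± 0.77. With at least 10 counts required in every library, which neither Cox6b2 nor Cox6a2 met, 1 gene remained at this size. Among the remaining genes Ndufv3, an accessory subunit beside the flavin site, came next at 0.98 ± 0.06. By complex the medians were 0.46 (I), 0.77 (II), 0.68 (III) and 0.43 (IV). With the GC and length trends removed, 39 genes were higher and 2 lower.

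**Figure D5:**
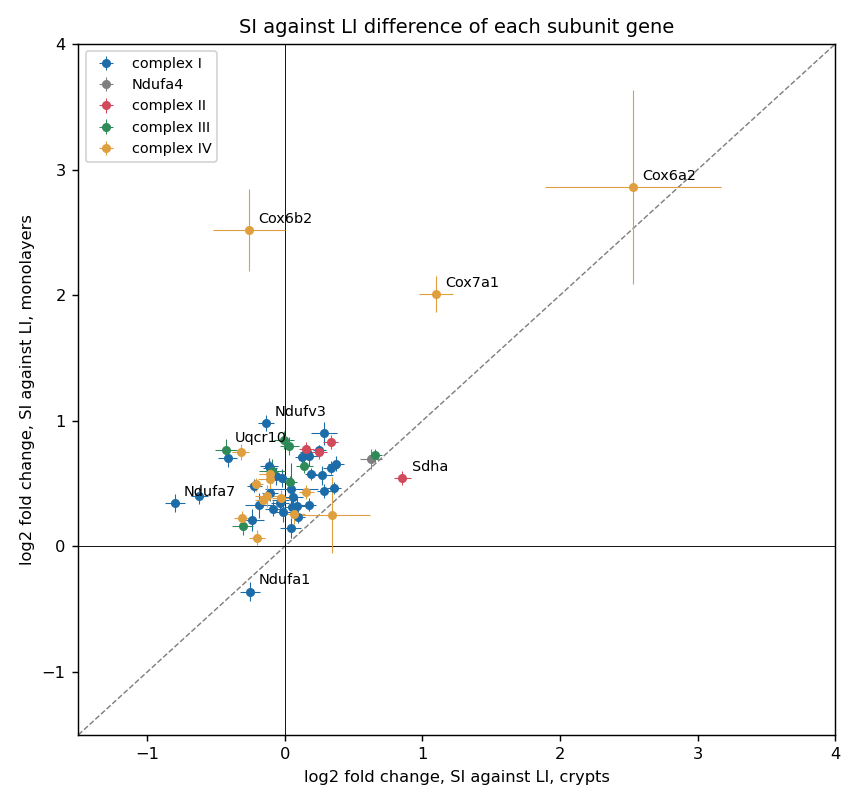
Log2 fold change of each tested gene between regions, SI against LI, in crypts (x axis) and in monolayers (y axis), with standard errors from edgeR as bars and colours by complex. Points scatter on both sides of 0 along the x axis, whereas on the y axis only Ndufa1 lies below 0 and Cox7a1, Cox6b2 and Cox6a2 lie above 2.

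The interaction asked whether the fall in culture differed between regions, as the log2 fold change in SI minus that in LI, so that a positive value means a smaller fall in SI. Of the 63 genes, 49 passed the test with a positive value and 1 with a negative one, as did 23.3% and 23.0% of all genes. The median was 0.50 against 0.00 over all genes. The 4 comparisons share libraries with each other and with the interaction, but those of culture in SI and in LI share none, and over the 63 genes their log2 fold changes had a Pearson correlation of 0.65 (Spearman 0.53), or 0.58 over 61 genes without Cox7a1 and Cox6b2. No correlation over all genes tested was taken, so this agreement cannot be read as particular to the chain. Genes of one chain in the same libraries share depth and makeup and are not independent. The gene with a larger fall in SI was Sdha at -0.31 ± 0.08 (edgeR adjusted p = 0.0053), a call lost when any SI monolayer library or LI monolayer library 2 or 3 was left out (log2 -0.16 to -0.21). Without one of these libraries the interaction median of all genes also moved, from 0.00 to between 0.0969 and 0.114. The 7 genes with an interaction of at least 1 (11.4% of all genes) were Ndufa6, Ndufa7, Ndufb8, Ndufv3, Uqcr10, Cox8a and Cox6b2, of which 2, Cox8a (1.01) and Cox6b2 (2.54), were at this size with the GC and length trends removed. Ndufa7, for example, was at 115, 97.1 and 116 CPM in SI crypts, 80.2, 75.3 and 79.6 in SI monolayers, 174, 193 and 203 in LI crypts and 62.9, 63.9 and 58.2 in LI monolayers, so that its LI crypts were the highest group and its LI monolayers the lowest. By complex, 27 of 35 genes passed with a positive value in I, 3 of 4 in II, 7 of 8 in III and 12 of 15 in IV. With the GC and length trends removed the number of positive calls was 32 and the median 0.25.

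Partner genes outside the naming pattern were counted from lists of whole pathways. Of 18 genes of ATP synthase, which uses the proton gradient, all 18 fell in both regions, with medians of -0.98 in SI and -1.35 in LI. An interaction that passed the test as positive was found in 14 of them. Of all genes tested, 30.6% fell in SI and 36.6% in LI, and 23.3% had a positive and 23.0% a negative interaction. Atp5b, the catalytic beta subunit, fell by 0.69 in SI and 0.89 in LI and Atp5g1, a gene for the proton-carrying c subunit, by 0.89 and 1.86. Cycs, cytochrome c itself, fell by 0.77 and 0.81 and its interaction of 0.04 did not pass the test. Cyc1, the cytochrome c1 of complex III whose name falls outside the pattern, fell by 1.09 and 1.59, and Ndufab1, the acyl carrier protein that is also a complex I subunit, by 0.59 and 0.83. Ndufa4l2, a paralog of Ndufa4, was at 0.0514 ± 0.0890 CPM (SD, n = 3) in SI crypts and 1.13 ± 0.415 in SI monolayers. It was at 0.0712 ± 0.0824 in LI crypts and 0.0649 ± 0.0275 in LI monolayers, near the limit of 3 counts like SI crypts. It passed the filter on low counts only through its SI monolayers, so its rise in SI culture is a description and no independent result. The 13 genes of the citric acid cycle other than Sdh all fell, by medians of 0.84 and 0.91. Of their interactions 4 passed the test as positive and 4 as negative, beside the 23.3% and 23.0% of all genes. Between crypts 11 of the 13 were higher in SI and 2, Suclg1 and Suclg2 of succinyl-CoA ligase, were lower, where 29.2% and 24.7% of all genes were.

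Genes that build the complexes did not all fall. Of 15 assembly factors of complex I, 11 fell in SI and 15 in LI, with medians of -0.37 and -0.61. Of 21 tested for complex IV, 14 fell and 2 rose in SI and 16 fell and 3 rose in LI, Higd1a being among those that rose in SI (0.53) and fell in LI (-1.68). Of 6 for complex III, 5 fell in SI and 4 in LI, and Uqcc2 rose in both (0.40 and 0.32). For complex II, 2 of 4 fell in SI and 4 of 4 in LI. Among 74 tested genes of the mitochondrial ribosome, which translates the mitochondrial mRNAs, 33 fell and 15 rose in SI and 48 fell and 8 rose in LI, where 30.6% of all genes fell and 29.0% rose in SI and 36.6% and 32.1% in LI. The medians of -0.13 and -0.35 stand beside -0.05 over all genes in either region.

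The 13 mitochondrially encoded subunits, which complete complexes I, III, IV and ATP synthase, fell in both regions but in the other order. Their median log2 fold change was -3.72 in SI and -1.91 in LI. All 13 interactions passed the test as negative, as in 23.0% of all genes, opposite in sign to most of those of the nuclear-encoded genes. Their sum was 42474 to 92779 CPM in SI crypts, 4384 to 5139 in SI monolayers, 21129 to 24177 in LI crypts and 6181 to 6512 in LI monolayers. All 13 were at least 2-fold higher in SI crypts than in LI crypts (11.6% of all genes), while in monolayers 12 of 13 did not pass the test between regions.

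Of 17 tested regulators of mitochondrial gene expression, 7 fell and 6 rose in SI and 9 fell and 6 rose in LI. Of all genes 30.6% fell and 29.0% rose in SI, and 36.6% and 32.1% in LI. The regulators went both ways, so the values that follow are of single genes. Ppargc1a, a coactivator of mitochondrial biogenesis, was at 51.7 ± 9.28 CPM (SD, n = 3) in SI crypts, 6.37 ± 0.438 in SI monolayers, 21.9 ± 1.99 in LI crypts and 8.96 ± 1.08 in LI monolayers, a fall of 3.02 in SI and 1.29 in LI. Ppargc1b, its homolog, fell more in LI, by 1.46 in SI and 2.75 in LI, and the nuclear receptor Esrra, a partner of both, fell by 1.39 and 1.53. Nrf1, a factor that binds promoters of many respiratory genes, rose by 0.43 and 0.63, and Gabpa, the DNA-binding subunit of an ETS factor known for the same, rose in LI by 0.64 and did not pass the test in SI (0.09). Myc rose by 2.02 and 3.15 and Pprc1, the third coactivator of the family, by 1.03 and 1.89.

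Promoters were read for the letters that such factors bind, since the genes moved together. The RefSeq table (GRCm38.p6, 250 bases before to 50 after each start) held 53 windows for 51 of the tested genes. The NRF1 core TGCGCANGC, on either strand, was in 11 of 53 windows (20.8%), against 4.16% of all 32851 promoters and 6.99% of those of tested genes. The ETS core CCGGAAG was in 11 (20.8%, against 8.86% and 14.8%), the YY1 core AAGATGGCG in 5 (9.43%, against 1.40% and 2.43%), all 5 in complex I, and the estrogen-related receptor site AAGGTCA in 4 (7.55%, against 4.72% and 3.60%). Ndufa5 has overlapping windows that hold the same NRF1 core, at 191 and 27 bases before their starts, so this site was counted more than once. These shares describe letters in the window and not binding. The 250 bases before the start are printed for Sdha, the gene with the negative interaction, for Sdhd of the same complex, for Cox6a1 with the highest level per length, and for Cox7a1 with the largest change, each on the strand of its gene from 5′ to 3′. Capitals mark an NRF1 core or an ETS core (read as CTTCCGG where it lies on the other strand), and these 4 genes were chosen after the matches were seen.
Sdha (chr13:74350241-74350490, minus strand): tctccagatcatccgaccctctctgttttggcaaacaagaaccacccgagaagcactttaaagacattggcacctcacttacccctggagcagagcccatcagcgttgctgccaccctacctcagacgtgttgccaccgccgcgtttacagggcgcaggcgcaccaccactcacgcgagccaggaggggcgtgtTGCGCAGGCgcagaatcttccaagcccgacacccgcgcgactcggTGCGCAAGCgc
Sdhd (chr9:50603850-50604099, minus strand): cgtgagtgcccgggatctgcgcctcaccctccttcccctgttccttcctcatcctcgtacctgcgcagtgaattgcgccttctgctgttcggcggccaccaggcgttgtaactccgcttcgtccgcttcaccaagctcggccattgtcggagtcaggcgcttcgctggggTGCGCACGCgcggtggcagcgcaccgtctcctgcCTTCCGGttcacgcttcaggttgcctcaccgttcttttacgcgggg
Cox6a1 (chr5:115348959-115349208, minus strand): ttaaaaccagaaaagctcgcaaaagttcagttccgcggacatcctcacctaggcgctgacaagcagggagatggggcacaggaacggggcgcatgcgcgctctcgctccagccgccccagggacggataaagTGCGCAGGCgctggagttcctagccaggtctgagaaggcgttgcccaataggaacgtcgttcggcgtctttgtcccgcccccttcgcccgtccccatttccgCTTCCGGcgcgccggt
Cox7a1 (chr7:30183921-30184170, plus strand): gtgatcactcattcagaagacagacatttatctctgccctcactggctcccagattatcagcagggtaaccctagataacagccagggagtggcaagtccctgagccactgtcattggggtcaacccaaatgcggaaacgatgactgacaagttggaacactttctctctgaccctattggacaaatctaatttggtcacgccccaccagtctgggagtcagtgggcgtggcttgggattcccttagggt
Within these 250 bases Sdha held 2 NRF1 cores, starting 56 and 11 bases before the start. Sdhd held an NRF1 core at 80 and an ETS core at 46, and Cox6a1 an NRF1 core at 118 and an ETS core at 16. The 250 bases printed for Cox7a1 held none of the letters searched. The 50 bases after the start entered the shares above but are not printed for these 4 genes.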

How the data were processed

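RNA-seq of 12 libraries was deposited as whole-number counts per gene, which the authors made with STAR 2.7.9a and featureCounts 2.0.2 on GRCm38, and as a normalized signal, the authors' counts divided by DESeq2 size factors, which was not tested. Settings for strand, mates and multimapping are not given in the sources used here, and 73.4 to 77.4% of counts from 1 to 20 were even. Counts were fitted with edgeR 4.0.16 (R 4.3.3, filterByExpr, TMM, robust quasi-likelihood, 4 group means), with Benjamini-Hochberg adjustment over 19581 genes and calls at 0.05. RPKM used the exon length of each gene. Alternatives were DESeq2 1.42.0, other scalings and filters, left-out libraries, a replicate block and GC and length trends. The fit was tested on simulated data. One member enters all counts and sums but its own values are not reported here. Genes with near-identical copies were found with BLAST 2.17.0. Counting intervals and floors cover counting error only. Named genes were the complex I core, complex II, the main subunits of III and IV, the alternative forms of complex IV, members that did not pass the filter, and members with the largest or at least 2-fold changes. The members and lists were chosen with earlier results of these data known.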

Additional observations from a re-analysis of the deposited data

Results flagged for a closer look

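The fall in culture differed between SI and LI by the interaction test of edgeR in 49 genes with a smaller fall in SI and in 1 gene, Sdha, with a larger one. The values that follow are the log2 fold change in SI minus that in LI, for the genes that passed and are reported here.

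In complex I the values were Ndufa8 0.23, Ndufa12 0.26, Ndufa10 0.28, Ndufa5 0.29, Ndufs6 0.33, Ndufa3 0.38, Ndufv1 0.39, Ndufs4 0.39, Ndufb6 0.40, Ndufb9 0.45, Ndufs7 0.51 and Ndufb4 0.52 for the smaller differences. The larger differences of complex I were Ndufs5 0.53, Ndufb5 0.54, Ndufc2 0.56, Ndufb10 0.59, Ndufs3 0.59, Ndufc1 0.62, Ndufb11 0.62, Ndufa13 0.70, Ndufs8 0.73, Ndufv2 0.75, Ndufb8 1.02, Ndufa6 1.12, Ndufv3 1.12 and Ndufa7 1.14. In complex II they were Sdha -0.31, Sdhb 0.50, Sdhc 0.51 and Sdhd 0.62. In complex III they were Uqcrb 0.47, Uqcrc2 0.48, Uqcrfs1 0.50, Uqcrh 0.70, Uqcr11 0.77, Uqcrq 0.85 and Uqcr10 1.20. In complex IV they were Cox5a 0.27, Cox7a2l 0.27, Cox6b1 0.41, Cox4i1 0.53, Cox7a2 0.53, Cox6a1 0.54, Cox7c 0.64, Cox7b 0.69, Cox5b 0.71, Cox7a1 0.91, Cox8a 1.07 and Cox6b2 2.78.

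These values come from the same 12 libraries and share their makeup, and region and isolation method cannot be told apart. The enterocyte and goblet marker sums did not overlap between any of the 4 groups, the immune marker sum overlapped between SI and LI crypts only, and their part in these differences was not tested. Groups of 3 libraries are too small for the test of single outlying libraries.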

How the results depend on the processing

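When single libraries were left out, 60 to 62 genes fell in culture in SI and 62 to 63 in LI, against 62 in each with all libraries, and none rose. Between monolayers the range was 56 to 59 higher and 1 to 1 lower in SI, for the interaction 47 to 56 positive and 0 to 1 negative, the negative call (Sdha) being lost without any SI monolayer library or LI monolayer library 2 or 3. Leaving out a monolayer library also moved the interaction median of all genes, to between 0.0969 and 0.115. Between crypts the split moved most, 14 to 23 higher and 10 to 22 lower. There it was 15 higher and 21 lower with upper quartile scaling, 13 and 18 with no filter on low counts and 11 and 15 with only the 2 groups in the fit, which gives no interaction value. A required log2 fold change of at least 1 left 22 genes that fell in SI, 2 higher and 0 lower in SI crypts, 3 higher and 0 lower in SI monolayers, and 7 positive and 0 negative interactions. With at least 10 counts in every library, 61 genes were tested, and 1 was at least 2-fold higher in SI crypts and 1 in SI monolayers.

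Removing the trends of GC content and exon length, an alternative chosen after seeing the data (values for 19560 of 19581 genes), gave 2 genes lower in SI monolayers and 32 positive interactions. It turned the sign in culture for Ndufa6 (0.054) and Ndufa2 (0.020) in SI and Ndufa4 (0.042) in LI. It did so between monolayers for Cox5a (-0.17), Ndufa12 (-0.031) and Ndufa2 (-0.065), and in the interaction for Ndufa8 (-0.072), Ndufa5 (-0.027), Cox5a (-0.023), Ndufa12 (-0.10) and Cox7a2l (-0.067). In this setting the median of all genes was 0.129 in SI culture, 0.167 in LI culture, -0.055 between monolayers and -0.033 in the interaction. The culture values of Ndufa6, Ndufa2 and Ndufa4 thus lay below the median of all genes. Ndufa12 between monolayers, and Ndufa5 and Cox5a in the interaction, lay above it, and the others below. The cause of the sign changes was not tested.

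Same-numbered libraries did not deviate together (correlations of -0.052 to 0.056). Deviations from means of 3 libraries cannot tell whether equal numbers mark the same mouse. With the replicate block 62 genes fell in SI and 62 in LI, 19 were higher and 13 lower in SI crypts, 56 higher and 1 lower in SI monolayers, and 47 interactions were positive and 1 negative. Genes near 1 CPM (Cox6a2, Cox6b2, Cox6c2) are limited by depth.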
